A study of Rattus norvegicus with 6 samples.

Results

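The genes described here are 4 members of the insulin and insulin-like growth factor 1 (IGF1) receptor pathway, chosen by identifier from the 31998 genes of the deposited table: Insr (ENSRNOG00000029986), Igf1r (ENSRNOG00000014187), Irs1 (ENSRNOG00000014597) and Akt1 (ENSRNOG00000028629). The rule uses no measured value, though it was written with earlier results of these data known. The deposited table holds identifiers only, so the names are those supplied with the 4 identifiers, and they were not checked against a reference. RNA was sequenced from neurons taken from the hippocampus of outbred Wistar rats at embryonic day 17 and grown in primary culture. Cytosine arabinoside, which limits dividing non-neuronal cells, was given at 10 µM on day 3, and experiments followed after 12 days in vitro. In 3 cultures palmitic acid, a saturated fatty acid, was added at 200 µM on a serum albumin carrier, and 3 cultures received vehicle. The specimens labelled N1, N4 and N5 each gave 1 culture to each treatment, so libraries were compared in pairs.

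Insulin and IGF1 act through a pair of closely related receptor tyrosine kinases, the insulin receptor (Insr) and the IGF1 receptor (Igf1r). An activated receptor phosphorylates docking proteins such as insulin receptor substrate 1 (Irs1), which recruit phosphoinositide 3-kinase, and the lipid it makes brings the kinase AKT1 (Akt1) to the membrane to be activated. AKT in turn restrains FOXO transcription factors and promotes growth signalling, and in neurons the pathway is known for its part in survival, glucose use and synaptic plasticity. Its activity is set largely by phosphorylation of these proteins, which RNA levels do not measure.

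Library totals ran from 15875411 to 18241773 counts, and all 4 genes passed the filter on low counts, as did 13938 genes in all. The libraries of N4 stood apart. Their scores on principal component 1, which held 79.5% of the variance, were 109.7 and 114.5, against -64.6 to -50 for the other specimens. Each result with palmitic acid is therefore also given without N4. The labelled neuronal identity was not checked against markers, because the identifiers were not paired with names. Whether a specimen holds cells of several animals is not stated in the labels. In bulk RNA of a culture, fewer cells of a type and less RNA per cell cannot be told apart.

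None of the 4 genes changed with palmitic acid by the paired edgeR quasi-likelihood test. Their Benjamini-Hochberg adjusted p-values, over 13938 genes, lay between 0.945 for Irs1 and 0.994 for Insr. The background is the same: 0% of genes were called (0 of 13938), 493 of them had an unadjusted p under 0.05 (3.54%), and the 4 genes were not among these. Paired limma also called 0 genes. Paired DESeq2, fitted to all 20710 genes with a read and not only those past the filter, called 2 higher and 4 lower (0.029%). None of those called was one of these 4. The default filters of DESeq2 can leave a gene without an adjusted p, and such genes stay in the 20710. The median log2 fold change was -0.04 over the 4 genes and -0.0041 over all genes tested, and the median size regardless of sign was 0.09 and 0.14. Levels of vehicle and palmitic acid libraries overlapped for 4 of 4 genes, where 3.32% of all genes tested had groups that did not overlap. Levels below are in CPM, reads relative to the library total, with totals scaled by the trimmed mean of M-values (TMM), and they are not corrected for gene length.

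**Figure D1:**
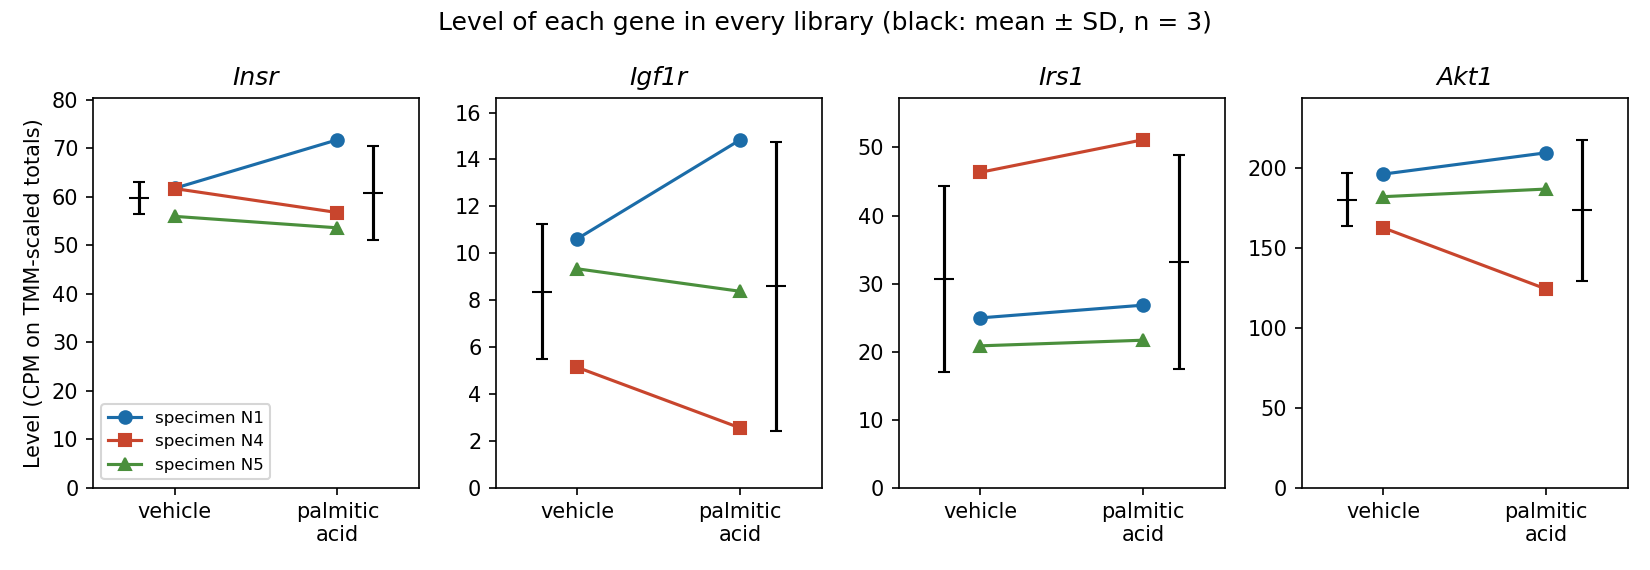
Level of Insr, Igf1r, Irs1 and Akt1 (CPM on TMM-scaled totals, vertical axes from 0) in the 3 vehicle and 3 palmitic acid libraries, with lines joining the libraries of a specimen and black bars giving mean ± SD (n = 3). The lines of Irs1 run nearly level with N4 on top, while those of Igf1r spread from 2.54 to 14.8 CPM with palmitic acid and have N4 lowest.

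Insr, which encodes the receptor for insulin, had 61.7, 61.7 and 55.9 CPM with vehicle in N1, N4 and N5, and 71.7, 56.7 and 53.6 CPM with palmitic acid. With palmitic acid the N1 library stood above the vehicle range, the N5 library below it and the N4 library within it. Group means were 59.8 ± 3.32 (vehicle) and 60.7 ± 9.71 CPM (palmitic acid; SD, n = 3). The paired edgeR log2 fold change was 0.01 ± 0.13 (SE, adjusted p = 0.994), with a 95% interval of 0.814- to 1.25-fold. This was the smallest difference among the 4, and 4.96% of all genes tested had a smaller one in size. Its sign turned under other scaling, to -0.0045 with DESeq2 size factors, and also without N1, to -0.09 ± 0.17 (adjusted p = 0.959). Without N4 the log2 fold change was 0.08 ± 0.12 (adjusted p = 0.938).

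Igf1r, which encodes the receptor for IGF1, had the fewest reads of the 4 genes, 46 to 260 in a library. It stood at 10.6, 5.13 and 9.33 CPM with vehicle in N1, N4 and N5, and at 14.8, 2.54 and 8.37 CPM with palmitic acid. The palmitic acid libraries held both the highest and the lowest level, N1 and N4, on either side of all vehicle libraries. Group means were 8.36 ± 2.87 (vehicle) and 8.58 ± 6.15 CPM (palmitic acid; SD, n = 3). The paired edgeR log2 fold change was -0.17 ± 0.29 (SE, adjusted p = 0.955), with a 95% interval of 0.546- to 1.45-fold, the widest of the 4 genes. That error exceeds the median of 0.20 among 1417 genes of similar abundance (mean log2 CPM within 0.5). Without N4 the log2 fold change was 0.17 ± 0.20 (adjusted p = 0.913), so its direction rests on that specimen.

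Irs1, the docking protein between receptor and phosphoinositide 3-kinase, had 25, 46.4 and 20.8 CPM with vehicle in N1, N4 and N5, and 26.8, 51.1 and 21.7 CPM with palmitic acid. The palmitic acid library was the higher of the pair in all 3 specimens, by 7.51%, 10.3% and 3.98%, and no other member had a difference of one sign in every pair. One sign in 3 of 3 specimens was seen for 1 of the 4 members and for 26.5% of all genes tested, so it does not set Irs1 apart. Group means were 30.7 ± 13.7 (vehicle) and 33.2 ± 15.7 CPM (palmitic acid; SD, n = 3). The paired edgeR log2 fold change was 0.10 ± 0.12 (SE, adjusted p = 0.945), with a 95% interval of 0.876- to 1.31-fold, and without N4 it was 0.08 ± 0.12 (adjusted p = 0.939). Of the variation of Irs1 in log2 CPM over the 6 libraries, specimen and treatment together left 0.117%. Only 1.99% of genes tested had a smaller remainder, and the median over all genes tested was 12.0%. That remainder is a share of a total of which specimen made up 98.9%, so it does not measure how steady the change with palmitic acid was. The standard error of the fit was 0.12, against a median of 0.14 among 2470 genes of similar abundance. The 95% counting interval of the Irs1 ratio, described below, included 0 in every specimen, though barely in N4 (-0.0006 to 0.28).

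Akt1, the serine/threonine kinase activated downstream of phosphoinositide 3-kinase, had 196, 162 and 182 CPM with vehicle in N1, N4 and N5, and 209, 124 and 187 CPM with palmitic acid. The N4 library with palmitic acid was the lowest of the 6 (-23.6% against its vehicle library). In N1 and N5 the palmitic acid library was instead the higher of the pair, by 6.81% and 2.62%. Group means were 180 ± 16.8 (vehicle) and 173 ± 44.1 CPM (palmitic acid; SD, n = 3). The paired edgeR log2 fold change was -0.08 ± 0.14 (SE, adjusted p = 0.954), with a 95% interval of 0.750- to 1.19-fold. Without N4 it was 0.07 ± 0.10 (adjusted p = 0.938), the opposite sign.

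Within a specimen each treatment has 1 library, so a ratio has a counting interval only (exact Clopper-Pearson, 95%) and no replicate check. By that interval 43.4% of all genes tested differed in N1, 57.9% in N4 and 28.5% in N5, so a member past it is not set apart from other genes. In N1, Insr, Igf1r and Akt1 had more reads with palmitic acid beyond counting error. Their reads went from 1029 to 1257, from 177 to 260 and from 3266 to 3666, and their log2 ratios were 0.22, 0.48 and 0.10 after scaling. Among genes of similar abundance, 31.1%, 17.9% and 68.8% had a larger ratio in size in N1. In N4, Igf1r and Akt1 had fewer reads beyond counting error, from 79 to 46 and from 2501 to 2245, with log2 ratios of -1.01 (interval -1.57 to -0.47) and -0.39 (-0.47 to -0.30). In N5 the log2 ratios of the 4 genes lay between -0.16 for Igf1r and 0.06 for Irs1, and every interval included 0. The Igf1r ratio in N4 was the largest in size of the 12, and 9.67% of genes of similar abundance had a larger one in that specimen. For Akt1 in N4 that share was 29.3%.

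**Figure D2:**
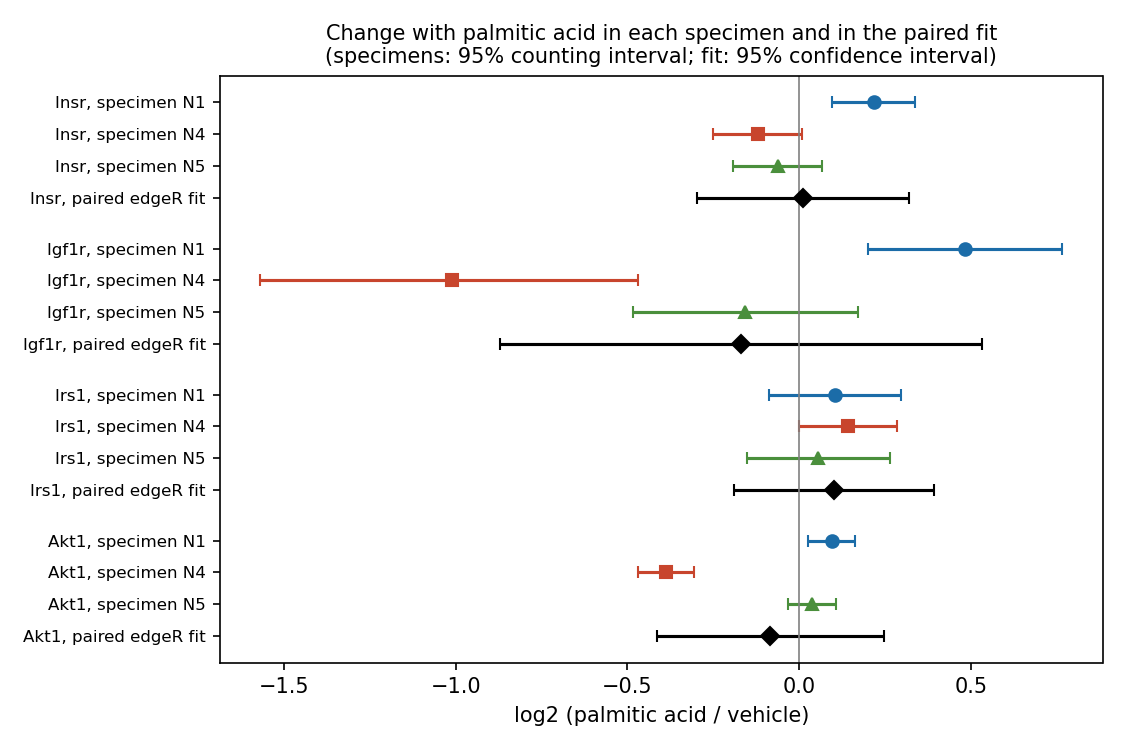
Log2 ratio of palmitic acid to vehicle for each gene in specimens N1, N4 and N5 (coloured symbols, 95% counting interval) and in the paired edgeR fit (black diamonds, 95% confidence interval), with the grey line at no difference. The intervals of the fit include 0 for 4 of 4 genes, and the N4 values of Igf1r (-1.01) and Akt1 (-0.39) lie on the other side of 0 from those of N1.

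The ratio of Insr to Igf1r reads within a library does not depend on how libraries are scaled. It is not corrected for gene length, so it does not compare amounts of the receptors. With vehicle there were 5.81, 12 and 5.99 Insr reads for each Igf1r read in N1, N4 and N5, and with palmitic acid 4.83, 22.3 and 6.40. Both N4 libraries were above the other 4, with either treatment. The log2 ratio changed by -0.27 in N1, 0.89 in N4 and 0.09 in N5, a mean of 0.24 ± 0.59 (SD, n = 3). The mean was smaller than the SD, and without N4 it was -0.09. The exact paired permutation test gave a two-sided p of 0.75, but with 3 pairs it cannot go below 0.25 and so could not have passed.

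**Figure D3:**
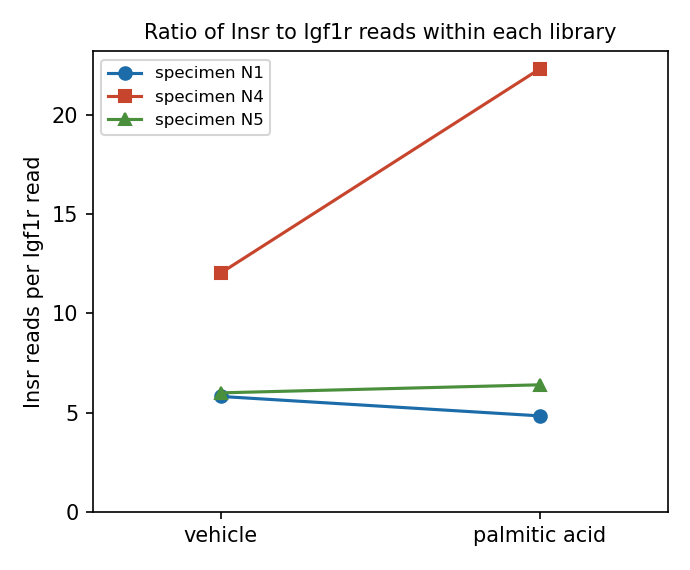
Number of Insr reads for each Igf1r read (vertical axis from 0) in each library, with lines joining both libraries of each specimen. The N4 libraries lie at 12 and 22.3, and the other 4 between 4.83 and 6.40.

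Specimen accounted for 71.0% (Insr), 84.5% (Igf1r), 98.9% (Irs1) and 77.8% (Akt1) of the variation in log2 CPM, and treatment for 0.171% to 3.00%. The medians over all genes tested were 78.8% and 3.90%. Igf1r and Irs1 differed in opposite directions between N4 and each of the other specimens. In the edgeR fit with specimen and treatment as terms, the quasi-likelihood test placed Irs1 higher in N4 than in N1, at a mean of 48.7 against 25.9 CPM (log2 difference 0.91 ± 0.15 SE, 1.88-fold, adjusted p = 0.00536). Igf1r was lower in N4 than in N1, at 3.84 against 12.7 CPM (log2 difference -1.77 ± 0.37 SE, 3.42-fold lower, adjusted p = 0.0131). These are 2 of the 4 members, where 32.5% of all genes were called for N4 against N1, so the share among members is not a result about them. The same pair was called for N5 against N4, where 34.7% of all genes were. Irs1 was lower in N5 (log2 difference -1.20 ± 0.15 SE, adjusted p = 0.00171) and Igf1r higher (1.23 ± 0.36 SE, adjusted p = 0.0418). Between N5 and N1 none of the 4 was called, against 2.92% of all genes.

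**Figure D4:**
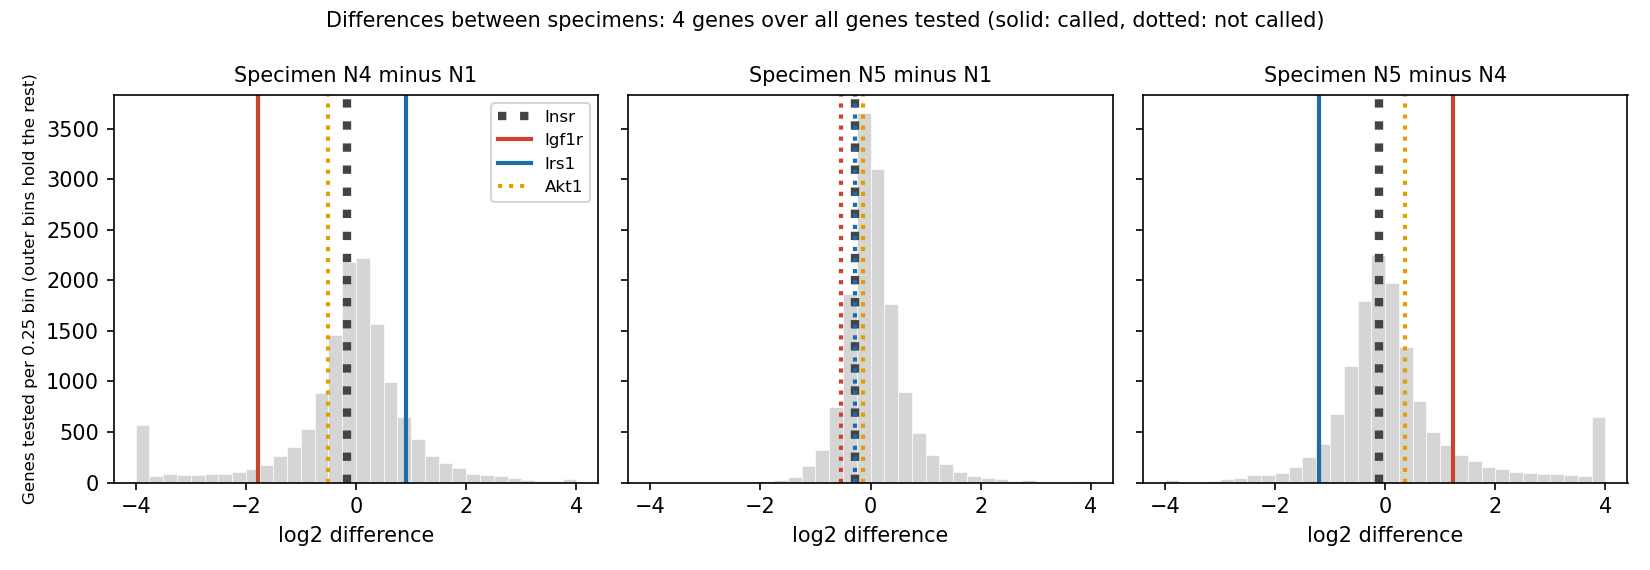
Log2 differences between specimens from edgeR for all 13938 genes tested (grey bars, genes per bin of 0.25, outer bins holding all larger values) and for the 4 genes (vertical lines, solid where called and dotted where not). Irs1 and Igf1r lie on opposite sides of 0 in both comparisons with N4, at 0.91 and -1.77 for N4 minus N1, and in the middle panel the lines of Insr and Irs1 coincide.

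The order of the specimens differed from gene to gene. For Igf1r it was N1, N5, N4 from high to low, with specimen means of 12.7, 8.85 and 3.84 CPM. Its difference between N1 and N5 did not pass the test (log2 difference N5 minus N1 -0.54 ± 0.34 SE, adjusted p = 0.421). For Irs1 the order was N4, N1, N5, at 48.7, 25.9 and 21.3 CPM, and N1 and N5 again did not pass the test (-0.28 ± 0.15 SE, adjusted p = 0.34). Akt1 ran in the order of Igf1r, at 203, 184 and 143 CPM, but no pair of specimens passed the test. The nearest was N4 against N1 (log2 difference -0.51 ± 0.17 SE, adjusted p = 0.0616). Insr had the order N1, N4, N5, at 66.7, 59.2 and 54.8 CPM, and was the steadiest of the 4, with 1.34-fold between its highest and lowest library against 1.69-fold for Akt1, 2.45-fold for Irs1 and 5.83-fold for Igf1r. Each specimen enters with 2 libraries, 1 per treatment, so these tests describe these cultures only.

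Genes with the most similar pattern were sought by Pearson's r of log2 CPM over the 6 libraries, among 13937 other genes. They were ENSRNOG00000006226 for Insr (r = 0.9958), ENSRNOG00000047708 for Igf1r (r = 0.9994), ENSRNOG00000003616 for Irs1 (r = 0.9994) and ENSRNOG00000014058 for Akt1 (r = 0.9996). The 6 libraries come from 3 specimens, so these values are a description in which any difference between specimens is shared. For Igf1r, Irs1 and Akt1, 1170, 1118 and 981 genes had an r above 0.9 and 964, 2127 and 787 an r below -0.9. For Insr these counts were 191 and 160.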

How the data were processed

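Raw read counts of 31998 Ensembl rat genes in 6 libraries were deposited by the authors. A stranded kit for mRNA was used on 500 ng of RNA, with paired reads of 125 bases, per the labels' protocols. The series' design text instead describes ribosomal RNA depletion and fewer cultures. The tools edgeR, DESeq2, featureCounts, Trimmomatic 0.39, Salmon 0.14.1 and STAR 2.7.1a are listed, with no role, per the submitters' processing notes. The build, annotation, counting strand and duration of exposure were not given in the sources used here, so reads of overlapping genes cannot be told apart.

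The test was edgeR 4.0.16 in R 4.3.3 (quasi-likelihood F test, TMM, filterByExpr with a minimum count of 10, terms for specimen and treatment), fitted to all 6 libraries. P-values were Benjamini-Hochberg adjusted over 13938 genes, with a threshold of 0.05. A standard error is the log2 fold change divided by the square root of F. Log2 CPM used a prior count of 2. The labels put each specimen in both treatments, which pairs the libraries. Across genes both libraries of a specimen deviated together from their groups (r = 0.771, 0.89 and 0.855). Mismatched libraries of N1 and N5 also did, less strongly (r = 0.424 and 0.404). The pairing itself was taken from the labels. Alternatives were no block, DESeq2 1.42.0, limma 3.58.1, other scaling and filters, and leaving out libraries. Fits were also run on counts simulated from a specimen-only fit to these data, which cannot check the assumptions of that fit. The outcome of that run is not given here. No pair of libraries was a copy (chi-square per degree of freedom 7.94 or more). That value was 19.5 between both libraries of N1 and 7.94 between those of N5. For N1 vehicle with N5 palmitic acid it was 53.8, and for N5 vehicle with N1 palmitic acid 61.4. A gene with 0 reads can have had up to 3, or 0.164 to 0.189 CPM on library totals before TMM scaling. Such limits and the counting intervals cover counting error only.

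The members and lists were chosen with earlier results of these data known. The 4 members are named by rule, with 1 most similar identifier each. A list of 63 pathway genes and 39 cell type markers was not tested, since 0 identifiers matched the RefSeq table (GRCr8, 47357 genes).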

Additional observations from a re-analysis of the deposited data

Results flagged for a closer look

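Igf1r and Akt1 moved in opposite directions in N1 and N4, each past counting error. Of all genes tested, 43.4% were past it in N1 and 57.9% in N4, in either direction. The share of all genes past it in opposite directions in N1 and N4 was not counted, so the pattern does not set Igf1r and Akt1 apart. The log2 ratio of palmitic acid to vehicle for Igf1r was 0.48 in N1 and -1.01 in N4, and that for Akt1 was 0.10 in N1 and -0.39 in N4. A larger ratio in size was found for 17.9% (N1) and 9.67% (N4) of genes of abundance similar to Igf1r, and for 68.8% (N1) and 29.3% (N4) of those similar to Akt1. Each specimen has 1 library per treatment, so the difference between specimens was not tested. The N4 libraries also stood apart over all genes, and their part in these values was not tested.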

How the results depend on the processing

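None of the 4 genes passed the threshold for palmitic acid under any of the 16 alternatives run for each, with adjusted p of at least 0.913. Of those 64 values, 46 kept their direction and 18 did not, none of them past the threshold. The cause was not tested. With the replicate block, Insr turned to -0.0038 with DESeq2, -0.0045 with DESeq2 size factors, -0.016 with no filter and -0.093 without N1, and without N4 Igf1r turned to 0.17 and Akt1 to 0.067. With no replicate block Igf1r was 0.038. With no block and 1 vehicle library left out, N1 gave 0.25 for Igf1r, -0.016 for Irs1 and 0.013 for Akt1, and N5 gave -0.054 for Insr, 0.085 for Igf1r and -0.12 for Irs1. Leaving out 1 palmitic acid library gave -0.12 for Insr (N1), 0.44, -0.38 and 0.10 for Igf1r, Irs1 and Akt1 (N4), and 0.056 for Igf1r (N5). Paired fits without 1 specimen ran from -0.093 to 0.079 for Insr and -0.55 to 0.17 for Igf1r. They ran from 0.081 to 0.099 for Irs1 and -0.18 to 0.067 for Akt1. Fits with no block and 1 library left out ran from -0.12 to 0.10 for Insr and -0.62 to 0.44 for Igf1r. For Irs1 they ran from -0.38 to 0.53 and for Akt1 from -0.22 to 0.10. Such a fit leaves 1 specimen in 1 treatment only, so a difference between specimens enters its value. The counts of 0 higher and 0 lower genes became 2 and 4 with paired DESeq2 and 2 and 1 with no filter. Without N1, N4 and N5 in the paired edgeR fit they became 2 and 4, 3 and 1, and 4 and 1. Of 48 alternative values for differences between specimens, 47 stayed on their side of the threshold. The exception was Akt1 in N4 against N1, which passed with specimen as the only term (-0.50, adjusted p = 0.0457). The pathway list and its alternatives were not run. Of the 4 genes Igf1r had the fewest reads, as few as 46 in a library, and the part of depth in its spread was not tested.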
